A study of Mus musculus with 21 samples.

Results

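H3K4me3, the trimethylation of lysine 4 of histone H3, was compared between cycling and differentiating C2C12 cells, a mouse myoblast line, in 7 peak lists from CUT&RUN. In this assay a nuclease guided by an antibody releases the DNA around a bound protein or mark, and the released fragments are sequenced. The series holds 21 libraries, and the 7 lists were those of every H3K4me3 library, 3 of cycling and 4 of day 2 cells. Cycling cells were grown in 20% FBS, cryopreserved in 10% DMSO and assayed without fixation (frozen native), in 3 replicates. Day 2 cells had been kept for 48 h in 2% horse serum, and each of 4 preparations gave 1 library. Frozen native is the preparation that matches the cycling cells, and the others were fresh native, fresh crosslinked and frozen crosslinked, where crosslinked cells had received 0.1% formaldehyde for 5 min. The labels give no genetic change in the line, and the 4 day 2 lists were treated as the day 2 group. The labels do not say whether these came from separate cultures, so they stand for preparations and not for replicates of day 2 cells. Stage and any difference between collections of cells cannot be told apart, and the same holds for the preparations other than frozen native.

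H3K4me3 marks the nucleosomes that flank active and poised promoters. Its domains are typically centred downstream of the gene start, and are wide at genes that define a cell's identity. Myoblasts that leave the cell cycle switch on Myog, which encodes the transcription factor myogenin, and then the genes of the contractile apparatus. The earlier factors MyoD and Myf5 are already present in proliferating myoblasts. C2C12 cells follow this course when serum is withdrawn.

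The promoters below are shown because their genes are those on which the comparison of stages turns. Each run is the 250 bases before the gene start, 5′ to 3′ on the gene's strand (RefSeq, GRCm38.p6). Capitals mark the letters CANNTG, the E-box to which myogenic factors bind, and TATAAA, the TATA box. Myog, Acta1, Myh3 and Tnnt2 had a peak in every day 2 list and no cycling list, and Selp and Cck had the opposite pattern.
Myog, chr1:134289754-134290003, plus strand: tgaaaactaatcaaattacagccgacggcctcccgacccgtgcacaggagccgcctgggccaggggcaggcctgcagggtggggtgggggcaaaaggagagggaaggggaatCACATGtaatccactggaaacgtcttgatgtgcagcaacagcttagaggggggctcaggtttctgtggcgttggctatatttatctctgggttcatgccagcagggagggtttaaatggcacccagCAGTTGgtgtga
Acta1, chr8:123894776-123895025, minus strand: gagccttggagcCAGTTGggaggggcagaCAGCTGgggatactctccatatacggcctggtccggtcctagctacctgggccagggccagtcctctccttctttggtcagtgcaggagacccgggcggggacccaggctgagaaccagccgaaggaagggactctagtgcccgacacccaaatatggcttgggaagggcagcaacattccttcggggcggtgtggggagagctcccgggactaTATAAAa
Myh3, chr11:67078050-67078299, plus strand: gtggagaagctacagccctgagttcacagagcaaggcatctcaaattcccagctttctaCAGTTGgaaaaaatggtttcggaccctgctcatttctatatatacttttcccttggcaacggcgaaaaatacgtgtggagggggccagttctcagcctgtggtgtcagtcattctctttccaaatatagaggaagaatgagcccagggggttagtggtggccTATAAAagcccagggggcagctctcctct
Tnnt2, chr1:135836084-135836333, plus strand: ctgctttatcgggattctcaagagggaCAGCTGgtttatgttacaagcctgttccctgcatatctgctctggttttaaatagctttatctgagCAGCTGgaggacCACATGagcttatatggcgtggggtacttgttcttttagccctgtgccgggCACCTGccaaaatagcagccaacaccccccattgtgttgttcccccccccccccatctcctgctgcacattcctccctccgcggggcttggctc
Selp, chr1:164115014-164115263, plus strand: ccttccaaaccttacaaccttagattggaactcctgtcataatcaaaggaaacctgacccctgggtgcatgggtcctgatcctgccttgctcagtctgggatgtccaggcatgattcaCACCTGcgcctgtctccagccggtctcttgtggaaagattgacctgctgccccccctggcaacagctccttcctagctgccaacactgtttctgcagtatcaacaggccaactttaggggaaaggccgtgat
Cck, chr9:121495695-121495944, minus strand: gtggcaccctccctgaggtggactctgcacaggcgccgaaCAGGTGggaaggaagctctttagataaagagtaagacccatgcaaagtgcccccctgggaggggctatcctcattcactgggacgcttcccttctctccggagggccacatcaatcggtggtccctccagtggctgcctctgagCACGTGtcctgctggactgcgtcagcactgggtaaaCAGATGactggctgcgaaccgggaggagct

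The lists held 18077, 40999 and 19365 peaks in cycling replicates 1, 2 and 3. At day 2 the native lists held 15431 (frozen) and 14372 (fresh) peaks, and the crosslinked ones 20203 (fresh) and 20245 (frozen). Cycling replicate 2 stood apart, with 41.6% of its peaks under 500 bp against 15.8% and 15.0% in the other cycling lists. It had 19827 loci that no other list held, which was 49.0% of its loci. The lists state no read numbers, so the depth of each library is unknown, and a difference in depth would move the number of weak peaks called. Peaks within 1 kb of a gene start were similar in number, from 10668 to 13452 per list. As markers of the cells, all 5 myoblast genes had a peak in every list, and the 7 genes of differentiating myocytes had 1, 1 and 0 peaks in the cycling lists and 7 in each day 2 list. Genes of other lineages with a peak numbered 5 to 9 of 27 in cycling lists and 5 or 6 in day 2 lists.

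**Figure D1:**
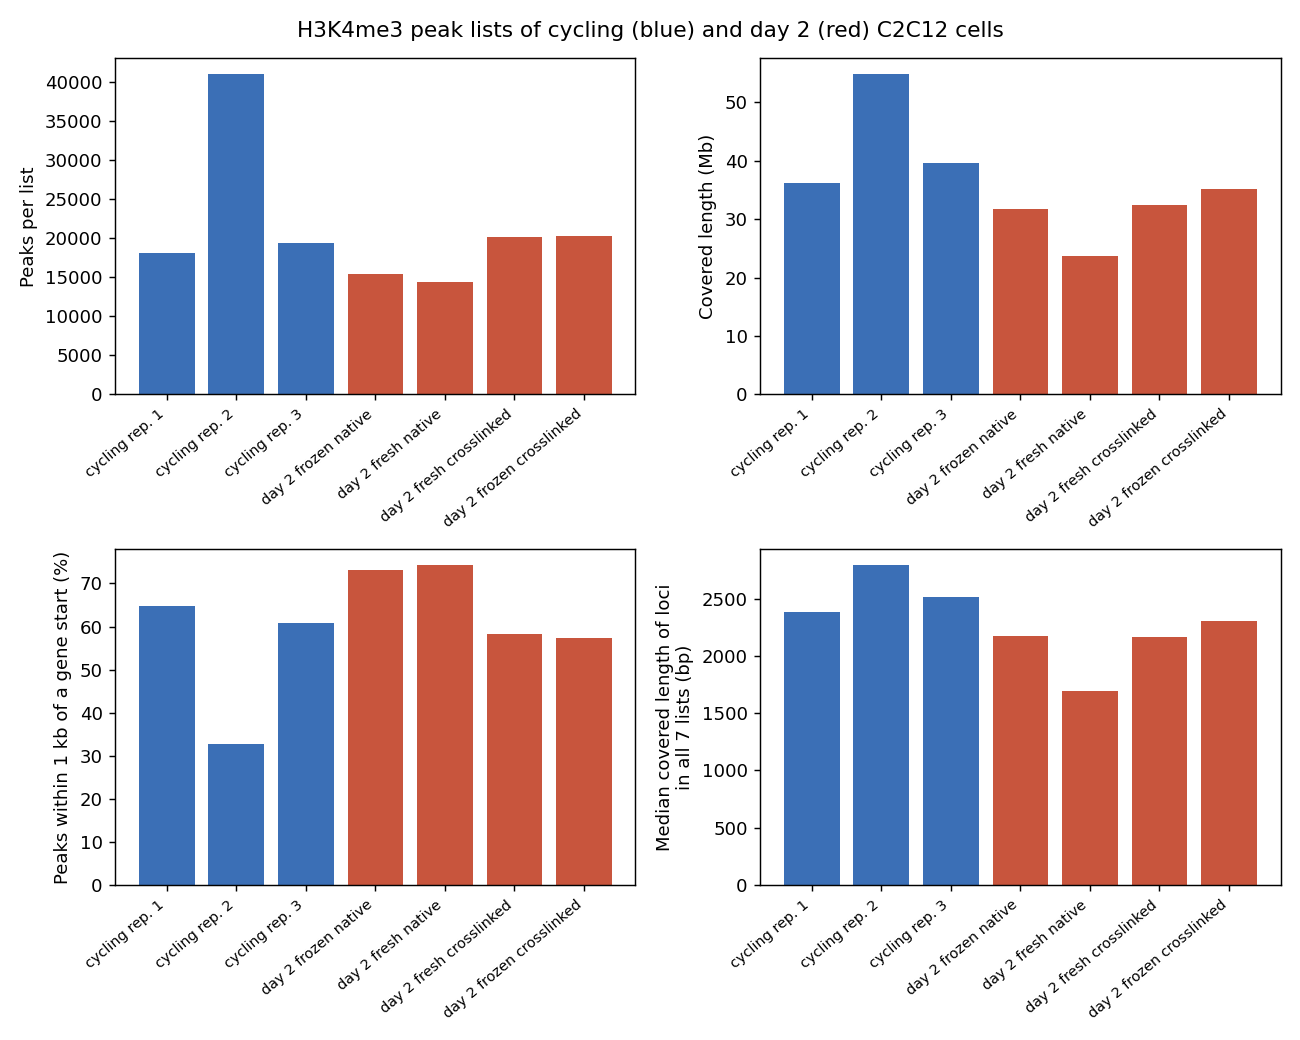
Number of peaks, covered length (Mb), percent of peaks within 1 kb of a gene start and median covered length (bp) of the loci present in all 7 lists, 1 bar per list, cycling in blue and day 2 in red. Cycling replicate 2 has 40999 peaks, and at shared loci the 3 cycling lists (2382 to 2792 bp) all exceed the 4 day 2 lists (1698 to 2308 bp).

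The day 2 lists covered less of the genome. Covered length was 43.5 ± 9.92 Mb in cycling (SD, n = 3) and 30.7 ± 4.95 Mb at day 2 (SD, n = 4), and every day 2 list was shorter than every cycling list. The exact two-sided permutation test gave p = 0.0571, the smallest p that 35 arrangements allow, and 0.143 after Benjamini-Hochberg adjustment over the 5 measures tested. The number of peaks (26147 ± 12878 against 17563 ± 3103), median width (1409 ± 647 against 1533 ± 216 bp) and percent of peaks near a gene start (52.8 ± 17.5 against 65.8 ± 9.16) overlapped between stages, with exact permutation p of 0.343, 0.743 and 0.343 and adjusted p of 0.429, 0.743 and 0.429. Without cycling replicate 2 the difference in covered length was -7.11 Mb in place of -12.8 Mb, and the median width was 250 bp lower at day 2, the reverse of the direction with all lists.

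Most gene-associated H3K4me3 was common to both stages. The 148692 peaks merged to 48199 loci, of which 11922 (24.7%) had a peak in all 7 lists. Of these shared loci 86.6% lay within 1 kb of a gene start. By contrast, 1215 loci (2.52%) had a peak in every cycling list and no day 2 list, called the cycling pattern here, and 88 (0.183%) had a peak in every day 2 list and no cycling list, the day 2 pattern. The pooled cycling list of the authors contained 2 of the 88. Lists of the same stage were not more alike than lists of different stages throughout. Of the bases covered by either list of a pair, the share covered by both had a median of 63.7% within cycling (3 pairs), 73.6% within day 2 (6 pairs) and 64.7% between stages (12 pairs). The cycling pair without replicate 2 was at 82.0%, above the largest share between stages (75.0%).

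**Figure D2:**
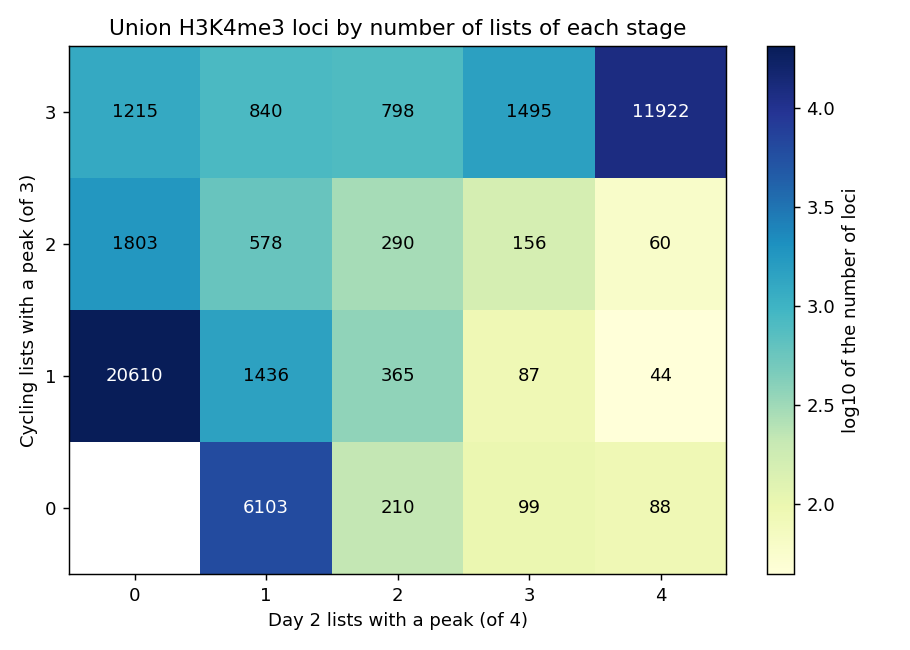
Number of union loci by how many of the 3 cycling lists (vertical) and 4 day 2 lists (horizontal) have a peak there, coloured by log10 of the number. The largest cells are 20610 loci in 1 cycling list alone and 11922 in all 7 lists, and the day 2 pattern (88) is the corner of no cycling and all day 2 lists.

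Positions within genes are given as a description. Of the day 2 pattern loci, 55 of 88 (62.5%) were within 1 kb of a gene start, 26 elsewhere inside genes and 7 outside. Of the cycling pattern loci, 265 of 1215 (21.8%) were near a start, 603 elsewhere inside genes and 347 outside. Their merged widths had medians of 2091 bp (day 2 pattern), 980 bp (cycling pattern) and 3057 bp (shared). Both patterns were among the weaker peaks of their lists, with a median percentile of the q-value of 27.7 (day 2 pattern) and 22.9 (cycling pattern). The asymmetry in number depended on list length: when each list was reduced to its 14372 strongest peaks, the patterns held 202 cycling and 143 day 2 loci. The day 2 pattern held 173 loci without fresh native, the list with the fewest loci, and the cycling pattern held 2368 without cycling replicate 1.

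In the matched preparation, 2304 loci (4.78% of the union) had a peak in every cycling list and none in frozen native day 2 cells. In the other direction, 369 loci (0.766%) had a peak in frozen native day 2 cells and no cycling list. Over genes, the corresponding numbers within 1 kb of the start were 472 (1.36%) and 114 (0.329%). Of the 114, 50 were found in all 3 other preparations and 18 in none of them. Of the 472, 277 had no peak in any other day 2 list.

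Among 34610 protein-coding and lncRNA genes, 12697 (36.7%) had a peak within 1 kb of the start in all 7 lists, 50 (0.144%) had the day 2 pattern and 277 (0.8%) the cycling pattern. With lists of equal length the last 2 numbers were 77 and 97. The 50 day 2 pattern genes comprised 42 protein-coding and 8 lncRNA genes at 46 distinct loci. Of the 50, 40 had no covered base within 5 kb of the start in any cycling list. Members of the lists of muscle genes made up 20 of the 50. These lists hold 4 myogenic regulatory factors, 4 Mef2, 18 upstream, 21 fusion, 47 sarcomere and 28 excitation genes. They were chosen with earlier results of these data known.

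Of the 4 myogenic regulatory factors, Myog had the day 2 pattern. Covered length within 5 kb of its start was 0 bp in all 3 cycling lists and 3127, 1491, 3433 and 2773 bp in frozen native, fresh native, fresh crosslinked and frozen crosslinked day 2 cells, the order of preparations used from here on. The groups did not overlap. The peak locus ran from chr1:134289782 to 134293214, from just before the start into the gene. The antisense lncRNA Myoparr starts 243 bp from Myog and shares this locus, so the mark of the pair cannot be told apart. The other 3 had a peak in every list, as had 36.7% of all genes. Myod1 had 4189, 4442 and 5312 bp in cycling and 3916, 3498, 3387 and 4239 bp at day 2, and the groups overlapped (adjusted p = 0.966). Myf5, which acts with MyoD in proliferating myoblasts, had 6591, 7002 and 7873 bp against 7041, 5822, 6742 and 6928 bp (adjusted p = 0.373). Myf6, whose window overlaps that of its neighbour Myf5, had 4735, 5443 and 4889 bp against 4175, 2927, 3475 and 3805 bp, with every day 2 list lower, though not past the threshold after normalization (adjusted p = 0.247).

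To compare covered length at gene starts over the genome, log2(bp + 200) was quantile-normalized and fitted with limma. Before normalization day 2 lists were lower by a median of 0.30 on the log2 scale (13609 of 14700 genes lower), so the differences below are relative to that shift. Of 14700 genes tested, 536 (3.65%) were higher at day 2 and 575 (3.91%) lower at an adjusted p under 0.05. Without normalization the split was 116 higher and 1033 lower. The 536 genes formed 444 groups of starts within 5 kb of each other and the 575 formed 450. The number higher was 323 without frozen native day 2 and 328 without fresh crosslinked day 2, and the number lower was 329 without cycling replicate 3. A gene with a mean under 500 bp in one stage could pass the filter (a mean of at least 500 bp over the 7 lists) only through the other, so for such genes the covered lengths are given, with no fold change and no p. Members of gene lists are counted below over the 13926 genes with a mean of at least 500 bp in each stage, of which 441 (3.17%) were higher and 489 (3.51%) lower at day 2. Genes named for the cycling pattern or for the size of their fall are described by their covered lengths, with no fold change or p from the main fit. Their calls enter the totals and the counts over alternatives. For Myod1, Myf6, Msc, Mymk, Mymx, Ncam1, Bin1, Tnnt3, Tnni2, Mylk2, Myom2, Sbk1, Chrnd, Jph1, Cacng1, Hey1, Heyl, Id1, Tpx2, Ccne2, Fosl1, Map6, Banp, Krt19, Ccl7, Btn1a1 and Defb25 no start was listed, and the values come from the gene end with more coverage, which may belong to a neighbour.

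Of the 4 genes of the Mef2 factors, which act with the myogenic factors at muscle genes, 3 had a peak in every list (36.7% of all genes did). Mef2b had a peak near its start in 1 of the 4 day 2 lists. Mef2a had 3025, 4173 and 3504 bp in cycling and 5522, 3687, 4722 and 5270 bp at day 2, a log2 difference of 0.69 ± 0.09 (SE, adjusted p = 0.00111), a call lost without normalization (adjusted p = 0.118) and with a 2.5 kb window (log2 difference 0.16). Mef2c had 2272, 2040 and 2694 bp against 3461, 2300, 2715 and 3222 bp (log2 difference 0.59 ± 0.14, adjusted p = 0.0253). Its adjusted p ranged up to 0.0733 when lists were left out, and the call was lost in 4 of those 7 fits, those without cycling replicate 1, fresh native, frozen native or frozen crosslinked day 2. Of the 3 Mef2 genes tested 2 rose, against 3.17% of all genes. With a 2.5 kb window or without normalization 0 did, and with frozen or with native day 2 lists only 1 did. At Mef2a and Mef2c the stages overlapped before normalization. Mef2d had 9526, 9544 and 9504 bp against 9898, 8222, 10001 and 10001 bp (adjusted p = 0.234), close to the whole 5 kb window on both sides. Mef2b fell under the filter, with 303, 807 and 332 bp in cycling and 0, 182, 248 and 0 bp at day 2.

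Of the 18 upstream myogenic factors, 12 had a peak in all lists (36.7% of all genes did), among them Pax7, the satellite cell factor. Covered length rose for 2 (Tcf12, Pitx3; 3.17% of all genes) and fell for 1 (Msc; 3.51% of all genes), with 9 tested and not past the threshold and 6 under the filter. Msc, which encodes musculin, a repressor of myogenic bHLH factors, had 4114, 4540 and 4531 bp in cycling and 1787, 1232, 1862 and 1896 bp at day 2. The groups did not overlap, and the log2 difference was -0.99 ± 0.10 (adjusted p = 0.000125). Tcf12, which encodes an E-protein partner of myogenic factors, had 3378, 3550 and 3518 bp against 4603, 3952, 5573 and 4407 bp (log2 difference 0.66 ± 0.11, adjusted p = 0.00432). The calls for Tcf12 and Pitx3 were lost with frozen day 2 lists only and without normalization, so that 0 rose there, and that for Pitx3 also with native day 2 lists only. Meox2, a homeobox gene of the somite, had the cycling pattern with 992, 388 and 818 bp against 0 bp in all day 2 lists.

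At the genes for the 2 muscle fusogens every day 2 list had more coverage than every cycling list. Mymk, which encodes myomaker, had 0, 629 and 0 bp in cycling and 2694, 2930, 3221 and 3391 bp at day 2. Mymx, which encodes myomixer, had 2199, 3809 and 3049 bp against 5281, 4014, 6018 and 5955 bp, with no overlap (log2 difference 1.08 ± 0.12, adjusted p = 0.000298). Of the 21 fusion genes 15 had a mean of at least 500 bp in each stage. Of these 3 rose, against 3.17% of all genes, and 0 fell (also at an unadjusted limma p under 0.05). Beside Mymx these were Ncam1 (0.51 ± 0.09) and Bin1 (0.42 ± 0.08), and neither call was kept without normalization or with frozen or native day 2 lists only. Neither these nor Mymk has a listed start, and of the 7 fusion genes tested that have one, 0 rose. Cdh15, the M-cadherin gene, had 3856, 5199 and 4239 bp against 4265, 4011, 4428 and 5185 bp (adjusted p = 0.0592).

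Of the 50 genes with the day 2 pattern, 14 were among the 47 sarcomere genes (0.144% of all genes had the pattern). Of these 47 members, 8 had a peak in all lists (36.7% of all genes), 13 in none, 12 had a mixture and 0 had the cycling pattern. In the fit 32 were tested, 14 of them at 0 bp in every cycling list, and 12 had a mean of at least 500 bp in each stage. Of the 12, 5 rose (Tnnc1, Mylpf, Tmod1, Ldb3, Unc45b) and 2 fell (Tpm3, Mylk2), against 3.17% and 3.51% of all genes, and without normalization 3 rose and 2 fell. Acta1, skeletal muscle actin, had 0 bp in cycling and 4894, 2158, 3598 and 6353 bp at day 2. Myh3, embryonic myosin heavy chain, had 0 bp against 5055, 3726, 3726 and 4458 bp. The day 2 loci of these genes spanned chr8:123890898-123897784 and chr11:67078246-67083376. Fresh native was the lowest or equal lowest day 2 list for both genes.

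Several troponin genes had coverage at day 2 that cycling lists lacked. Tnnt1 (slow troponin T) had 0 bp in cycling and 3064, 2492, 3727 and 3911 bp at day 2, and Tnnt2 (cardiac troponin T) had 0 bp against 2940, 1748, 2903 and 2521 bp. Tnnt3 (fast troponin T) had 0 bp against 2600, 1475, 1526 and 1650 bp. Tnni1 (slow troponin I), whose start lies 36913 bp from that of Tnnt2, had 308, 904 and 0 bp against 2749, 2962, 3044 and 3942 bp. The fast genes Tnni2 and Tnnc2 were less even. Tnni2 (fast troponin I) was under the filter, with 0 bp in cycling and 183, 0, 652 and 1193 bp at day 2. Tnnc2 (fast troponin C) had 0, 1232 and 0 bp against 2555, 984, 2079 and 1617 bp, with overlap. Tnnc1, the slow and cardiac troponin C, was already marked in cycling cells and widened from 3179, 4063 and 3011 bp to 6875, 5429, 7022 and 7731 bp (log2 difference 1.22 ± 0.08, adjusted p = 8.20e-06).

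Among other contractile genes, Mybph had 0 bp in cycling and 4499, 2108, 3621 and 3498 bp at day 2. Lmod2, a nucleator of thin filaments, had 0 bp against 3290, 2764, 3946 and 3098 bp, and Myl1 had 0 bp against 2638, 811, 3331 and 3529 bp. Ttn, the gene of the giant spring titin, had 0, 0 and 370 bp against 3078, 2008, 2205 and 3229 bp. Of the 2 sarcomere genes that fell, Tpm3, which is also expressed outside muscle, had 5301, 7236 and 5668 bp against 3483, 2937, 4395 and 3479 bp (adjusted p = 0.0177). The call was lost in 3 of 7 fits with a list left out (cycling replicate 3, frozen native and frozen crosslinked day 2). These values are for 1 listed start, chr3:90079521. Within 5 kb of the hairpin Mir190b, at chr3:90070020, coverage was 0 bp in cycling and 902, 898, 1140 and 1183 bp at day 2. The other sarcomere gene that fell, Mylk2, has no listed start. The adult myosin heavy chains Myh1, Myh2 and Myh4 had no peak in any list.

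Myom2, which encodes an M-band protein, had 0 bp in cycling and 4779, 2131, 5366 and 4977 bp at day 2, with a peak within 1 kb of the start in 3 of the 4 day 2 lists.

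Genes outside the fixed lists also had the day 2 pattern, such as Klhl41 and Sbk1, whereas Lmo7 did not. Klhl41, a sarcomere-associated kelch protein gene, had 0, 409 and 0 bp in cycling and 4133, 3610, 4192 and 4223 bp at day 2. Sbk1, which encodes a serine/threonine kinase, had 0 bp against 3431, 2567, 3425 and 3779 bp. Lmo7 had a peak near one of its starts in every list, whereas a second listed start, chr14:101840623, had 0 bp in cycling and 3144, 2141, 3217 and 3343 bp at day 2. The lncRNA Mir1a-1hg, host of a muscle microRNA and named after its values were seen, had 0 bp against 4984, 4496, 4116 and 3949 bp and shares its locus with the lncRNA B230312C02Rik.

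**Figure D3:**
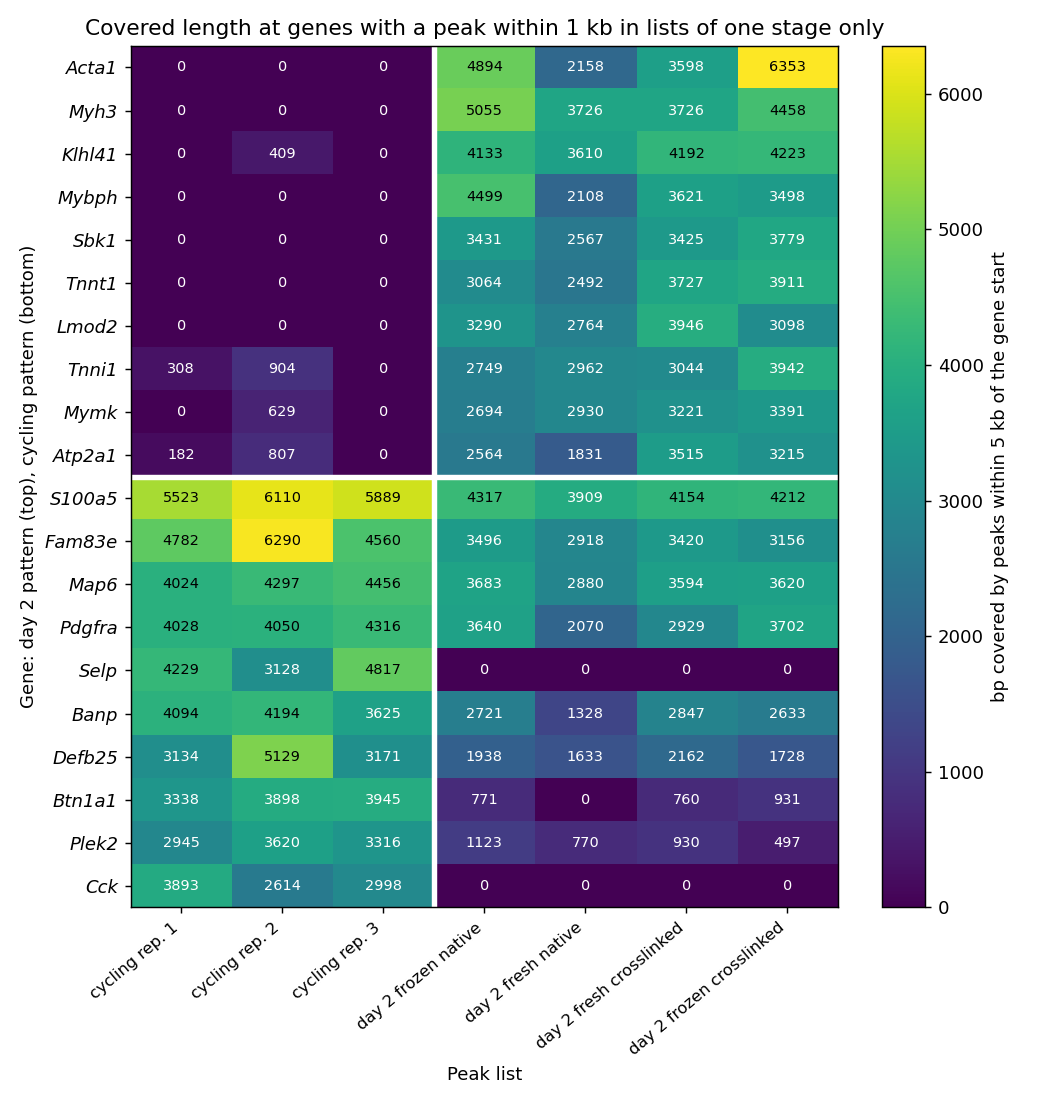
Base pairs covered by peaks within 5 kb of the start of 20 protein-coding genes in each of the 7 lists, with 10 day 2 pattern genes above the line and 10 cycling pattern genes below, ordered by mean in the stage with the peak. The upper left block is at 0 to 904 bp, whereas among the lower genes Selp and Cck alone are at 0 bp in all 4 day 2 lists.

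For excitation, the endplate and muscle metabolism, 4 of 28 genes had the day 2 pattern (0.144% of all genes) and 16 a peak in all lists (36.7% of all genes). Of the 17 with a mean of at least 500 bp in each stage 5 rose (Ryr1, Chrnd, Jph1, Chrna1, Cacng1), against 3.17% of all genes, and 0 fell (2 of the 23 tested at an unadjusted limma p under 0.05). With a list left out, the calls of Ryr1, Chrna1 and Cacng1 were lost in 4 (each day 2 list), 5 (all but cycling replicate 2 and fresh native day 2) and 6 (all but fresh crosslinked day 2) of 7 fits. Of the 17, 0 were called higher without normalization or with frozen or native day 2 lists only. With a list left out 2 to 5 were, 2 without frozen native or frozen crosslinked day 2 and 3 without cycling replicate 1 or 3, fresh native or fresh crosslinked day 2. The stages overlapped at all 5 before normalization, and of the 16 members covered in all lists 2 were lower and 0 higher in every day 2 list, against 39.8% and 0.889% of genes. Casq2, a calcium buffer of the sarcoplasmic reticulum, had 0 bp in cycling and 2568, 2416, 2426 and 2607 bp at day 2, with all preparations near each other. Atp2a1, the fast calcium pump, had 182, 807 and 0 bp against 2564, 1831, 3515 and 3215 bp. Of the acetylcholine receptor subunits, Chrng (embryonic gamma) had 0 bp against 1936, 969, 2587 and 2428 bp, while Chrnd had 1284, 2193 and 1705 bp against 1922, 1838, 2593 and 2398 bp, with overlap. Ckm, muscle creatine kinase, had 0 bp against 1085, 317, 1955 and 423 bp.

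The Notch pathway, known to hold back myogenic differentiation, contained genes whose covered length rose relative to the genome-wide shift. Before normalization 9 of 20 members covered in all lists were lower and 1 higher in every day 2 list, against 39.8% and 0.889% of genes. Of 22 inhibitors and Notch genes 20 had a mean of at least 500 bp in each stage. Of these 3 rose (Dll1, Notch3, Hey1), against 3.17% of all genes, and 0 fell (3 of the 21 tested at an unadjusted limma p under 0.05). Dll1, a ligand, had 2509, 3962 and 2230 bp in cycling and 5844, 5110, 5585 and 6411 bp at day 2 (log2 difference 1.27 ± 0.12, adjusted p = 0.000126). Notch3, a receptor, had 1654, 3926 and 2312 bp against 4336, 3027, 4331 and 4339 bp (0.95 ± 0.18, adjusted p = 0.0109), with overlap, and was not called without normalization. Hey1 lost its call in 2 of 7 fits with a list left out (fresh crosslinked and frozen native day 2), and of the 20 only 1 rose and 2 fell without normalization, and 1 rose with frozen or with native day 2 lists only. Heyl, a target, had 0, 668 and 0 bp against 3299, 994, 2401 and 2554 bp. The Id genes, whose proteins sequester E-proteins, were marked in all lists, and Id1 had 6268, 8220 and 6626 bp against 5265, 4840, 5716 and 5817 bp (adjusted p = 0.313).

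All 55 genes of S phase and mitosis kept a peak in all 7 lists (36.7% of all genes did). Every day 2 list was narrower than every cycling list at 47 of the 55 before normalization, against 39.8% of genes covered in all lists. After normalization 7 fell, against 3.51% of all genes, 0 rose (1 at an unadjusted limma p under 0.05) and 48 were not past the threshold, and the median log2 difference was -0.19 against 0.04 over all genes covered in the 7 lists. The 7 were Tk1, Rrm2, Cdc20, Tpx2, Plk1, Cdk1 and Ccne2. Rrm2, a subunit of ribonucleotide reductase, had 6766, 7951 and 6913 bp in cycling and 4091, 3561, 3637 and 4293 bp at day 2 (log2 difference -0.61 ± 0.08, adjusted p = 0.00135). Tk1, thymidine kinase, had 6800, 7709 and 6617 bp against 4171, 2221, 4055 and 4196 bp (-0.69 ± 0.12, adjusted p = 0.00716). Cdk1, the mitotic kinase, had 4901, 5073 and 5456 bp against 2892, 2446, 2941 and 3289 bp (-0.51 ± 0.10, adjusted p = 0.0109). In a 2.5 kb window the normalized difference of Cdk1 was 0.16 and that of Ccne2 0.040, the reverse direction, and Rrm2 and Tk1 were no longer called. With a list left out, the calls of Ccne2 and Tpx2 were lost in 6 (all but cycling replicate 2) and 5 (all but cycling replicate 2 and frozen crosslinked day 2) of 7 fits, and that of Cdk1 in 1 (cycling replicate 3). Those of Tk1, Rrm2, Cdc20 and Plk1 were lost in 0. The number that fell was 17 without normalization, 11 without cycling replicate 2, 4 without cycling replicate 3 and 2 with either frozen or native day 2 lists only.

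Of 10 genes of cell cycle exit, Cdkn1a, which encodes the inhibitor p21, rose from 4536, 5059 and 4489 bp to 5946, 3796, 5640 and 6294 bp (log2 difference 0.46 ± 0.10, adjusted p = 0.0169), which made 1 of 7 tested against 3.17% of all genes. The groups overlapped, and the call was lost in 4 of 7 fits with a list left out (cycling replicate 3 and every day 2 preparation but fresh native). It was also lost without normalization (log2 difference 0.18), with a 2.5 kb window (0.25), with native day 2 lists only, with q at most 0.01 and with no filter. No other member passed the threshold, with 6 tested and 3 under the filter.

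The 27 serum response genes all kept a peak in every list (36.7% of all genes did). Of the 27, 1 rose (Srf; 3.17% of all genes), 2 fell (Fosl1, Atf3; 3.51% of all genes) and 24 were not past the threshold. The counts that rose and fell are near those shares, and without normalization 0 rose and 0 fell. Fosl1, an AP-1 subunit, had 5839, 9149 and 5760 bp in cycling and 4205, 2649, 4449 and 4176 bp at day 2 (log2 difference -0.56 ± 0.13, adjusted p = 0.0253). The calls of Srf, Fosl1 and Atf3 were lost in 3, 3 and 5 of the 7 fits with a list left out. Fos had 3627, 5032 and 3733 bp against 3603, 3167, 4242 and 3745 bp, with overlap (adjusted p = 0.391).

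The 22 cytosolic ribosomal protein genes also had a peak in all lists (36.7% of all genes did). Of these 6 fell, among them Rplp0, Rpl4 and Rps3, against 3.51% of all genes, 0 rose (also at an unadjusted limma p under 0.05) and 16 were not past the threshold, with a median log2 difference of -0.34, and 17 of 22 were narrower in every day 2 list before normalization, against 39.8% of genes covered in all lists. Rpl4, which encodes a protein of the large subunit, had 5252, 5937 and 5699 bp in cycling and 3344, 2519, 3175 and 3392 bp at day 2 (log2 difference -0.55 ± 0.08, adjusted p = 0.00276). The groups did not overlap. The call for Rpl4 was lost with frozen or with native day 2 lists only. Rps3 lost its call in 4 of 7 fits with a list left out (cycling replicates 1 and 3, fresh native and fresh crosslinked day 2) and Rplp0 in 2 (cycling replicates 1 and 3). With a 2.5 kb window 3 of the 22 fell and the median was -0.08. Without cycling replicate 3 also 3 fell, and with frozen day 2 lists only 1 did.

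**Figure D4:**
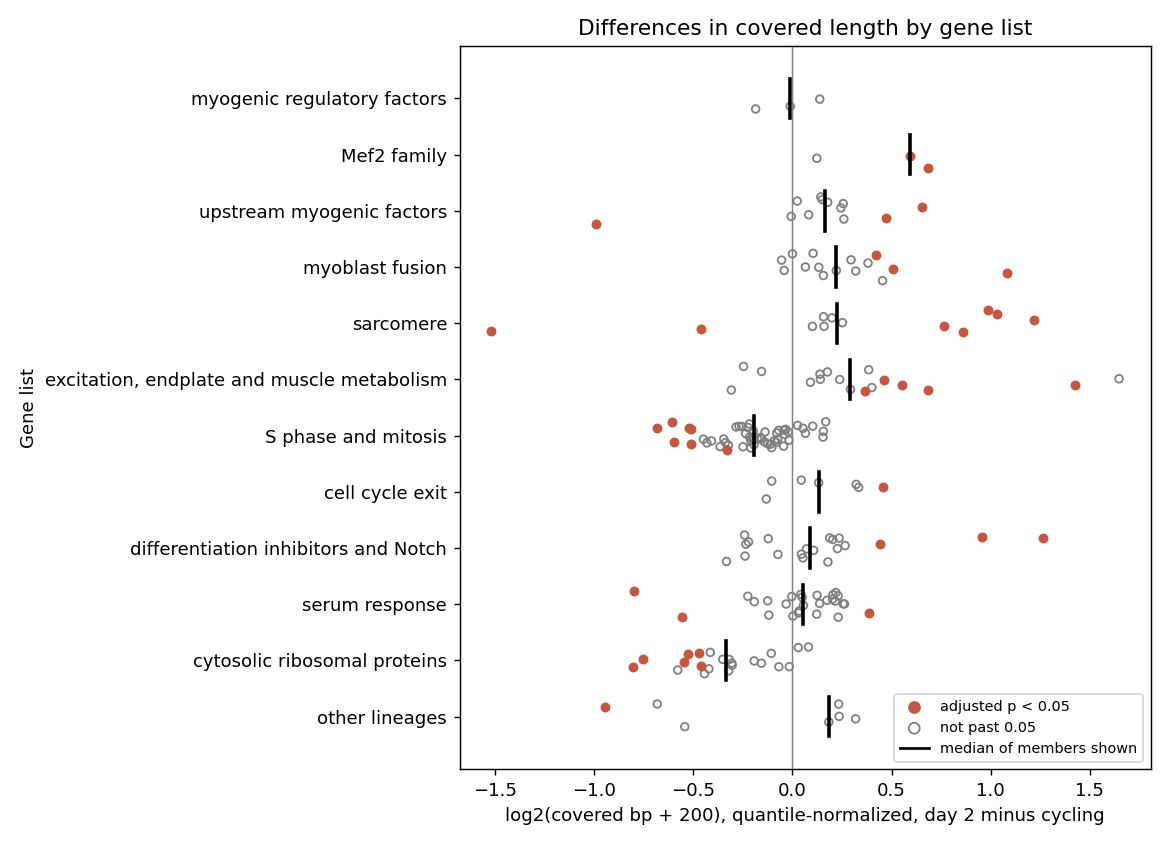
Day 2 minus cycling difference in quantile-normalized log2(covered bp + 200) for each member of the 12 gene lists with a mean of at least 500 bp in each stage, with filled circles for adjusted p under 0.05, open circles for the rest and a bar at the median of the members shown. The sarcomere list shows 12 of its 47 members, with a median of 0.23, and the medians of S phase and ribosomal protein genes are -0.19 and -0.34.

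The 277 cycling pattern genes comprised 183 protein-coding and 94 lncRNA genes, and 215 of them had no covered base within 5 kb in any day 2 list. At several of the 10 with the most coverage, no day 2 list had a peak within 1 kb of a start, while coverage within 5 kb remained. Peaks were scored at any start or gene end, and covered length at the one with the most coverage. These measures can therefore describe different sites. Pdgfra, the receptor of fibroblastic progenitors, had 4028, 4050 and 4316 bp in cycling and still 3640, 2070, 2929 and 3702 bp at day 2. S100a5 had 5523, 6110 and 5889 bp against 4317, 3909, 4154 and 4212 bp, and Map6 had 4024, 4297 and 4456 bp against 3683, 2880, 3594 and 3620 bp. Banp had 4094, 4194 and 3625 bp against 2721, 1328, 2847 and 2633 bp, and Fam83e had 4782, 6290 and 4560 bp against 3496, 2918, 3420 and 3156 bp. At all 5 genes every day 2 list was lower than every cycling list, with at least 1328 bp left. The same held for 39.8% of genes covered in all lists, and these 5 were named for the cycling pattern.

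Other genes, named for the cycling pattern or for the size of their fall, had less coverage in every day 2 list, down to 0 bp. Selp, which encodes the adhesion receptor P-selectin, had 4229, 3128 and 4817 bp in cycling and 0 bp in all 4 day 2 lists. Cck, the gene of the peptide cholecystokinin, had 3893, 2614 and 2998 bp against 0 bp, and Krt19, a keratin of simple epithelia, had 2573, 3926 and 2480 bp against 0 bp. Scube3, Il18rap, Ptprn and Havcr2 were also at 0 bp in all day 2 lists, with cycling means of 1853, 1825, 1732 and 1727 bp. The chemokine gene Ccl7 had 2600, 2495 and 2395 bp against 0, 0, 161 and 210 bp, with a peak near the start in 2 day 2 lists. Ngfr, a neurotrophin receptor, had 2375, 2767 and 2330 bp against 0, 0, 138 and 304 bp, with a peak near the start in 1. Btn1a1 had 3338, 3898 and 3945 bp against 771, 0, 760 and 931 bp, and Plek2 had 2945, 3620 and 3316 bp against 1123, 770, 930 and 497 bp. Rpp25 had 2514, 3288 and 1349 bp against 364, 0, 0 and 0 bp, with a peak near the start in 1. Defb25 had 3134, 5129 and 3171 bp against 1938, 1633, 2162 and 1728 bp, and its direction reversed with lists of equal length. Of 27 genes of other lineages, 1 fell (of 7 tested, against 3.51% of all genes), the neuronal gene Syn1 (2846, 3466 and 3094 bp against 1428, 695, 1340 and 1236 bp, adjusted p = 0.000330), 6 were not past the threshold and 20 were under the filter.

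Loci present in all lists were narrower in the day 2 lists. Their median covered length was 2382, 2792 and 2514 bp in the cycling lists and 2174, 1698, 2167 and 2308 bp at day 2. The groups did not overlap, with means of 2563 ± 209 and 2087 ± 267 bp and an exact permutation p of 0.0571 (adjusted 0.143), the smallest possible. Locus by locus, every day 2 list was narrower than every cycling list at 4560 of 11922 (38.2%) and wider at 118 (0.99%). The matched frozen native list was narrower than every cycling list at 7599 (63.7%) and wider at 977 (8.19%). Depth is unknown, and whether it contributes to these widths was not tested.

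The promoters of the patterns also differed in sequence content, given here as a description. Of 39 day 2 pattern promoters in the table (250 bases before to 50 after the start), 92.3% held CANNTG, 56.4% its form CAGCTG and 33.3% TATAAA on either strand. Over all 27024 promoters the shares were 72.0%, 16.2% and 14.1%. The 216 cycling pattern promoters were at 74.5%, 18.1% and 11.6%, and the 10291 shared ones at 60.8%, 14.6% and 6.36%. The 14466 promoters with no peak in any list were at 79.8%, 16.6% and 19.8%. Median numbers of CG dinucleotides were 5 in the day 2 pattern, 12 in the cycling pattern, 22 in shared and 3 in promoters with no peak in any list. In the runs printed above, Acta1 holds CAGCTG once and Tnnt2 at 2 places, and Acta1 and Myh3 hold TATAAA. A match of letters is no evidence that a factor binds.

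Peaks of the proteasome regulator PSME3 in cycling cells, in the authors' pooled list, overlapped 3962 of the shared loci (33.2%, Clopper-Pearson 95% interval 32.4 to 34.1), 160 of the cycling pattern loci (13.2%, 11.3 to 15.2) and 1 of the 88 day 2 pattern loci (1.14%, 0.0288 to 6.17). Over all union loci the share was 11.1%. With PSME3 peaks found in at least 2 replicates the shares were 5.75% (shared), 1.07% (cycling pattern) and 1.14% (day 2 pattern), so the difference between the patterns was not kept. The intervals cover counting error only.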

How the data were processed

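The authors used Trim Galore for trimming, Bowtie2 for alignment to mm10 and MACS2 for peak calling, per the labels (versions not given in the sources used here). The deposited lists have the MACS2 broad layout, 1 list per library. They give the authors' fold enrichment (a ratio to background), the −log10 of the p-value and q-value, and a score, and every listed q-value was under 0.1. Fold enrichment and score served only to describe peaks, and q-values to rank or filter them. Peak positions carried the analysis. Control IgG lists and day 2 PSME3 lists were not used here.

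Members, gene lists and tests were chosen with earlier results of these data known. Peaks sharing 1 bp were merged. A gene had a peak if one lay within 1 kb of any of its starts. Starts of 27024 of 34610 genes came from RefSeq promoters (GRCm38.p6, the same assembly as mm10). For the other 7586 the strand is unknown, so both gene ends were used, the one with more coverage for covered length. Where a gene had several listed starts, covered length was taken at the start with the largest mean over the 7 lists. Differences in covered length (5 kb either side, mean of at least 500 bp over the 7 lists, pseudocount 200 bp) were tested with limma 3.58.1 in R 4.3.3 (trend and robust), Benjamini-Hochberg at 0.05. Measures per list were compared by exact permutation. The rest was computed in Python 3.11.15 (pandas 2.3.3, numpy 2.4.6, scipy 1.17.1), and functions were tested on simulated data. P-values measure the spread between these libraries, and the spread of day 2 is over preparations.

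Genes were named by rule: all members of the myogenic regulatory factor and Mef2 lists with Mymk, Mymx and Cdh15, the 10 protein-coding genes of each pattern with the most coverage, the 10 with the largest rise and fall in the fit, and members of the 12 fixed lists (285 genes) with a pattern or a call. For lists the first members without a call were added as examples, chosen after their values were seen, as were the promoters printed. The alternatives are other q-values, equal list lengths, joined peaks, windows, normalizations, pseudocounts and filters, subsets of preparations and each list left out. Genes with a listed start only were added after seeing the data. Values of some members are not reported here.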

Additional observations from a re-analysis of the deposited data

Results flagged for a closer look

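In 45 sets of 4 day 2 values (5 measures per list and 40 named genes), Dixon's ratio marked a list far from the others in 6. Chance marks about 1 set in 20 where values are free to vary, which does not hold at Rpp25 (3 lists at 0 bp) or Mef2d (2 lists at the limit of the window). Fresh native was the low list in 5 of them, with 8222 bp covered at Mef2d (others 9898 to 10001), 3610 bp at Klhl41 (4133 to 4223), 2880 bp at Map6 (3594 to 3683), 1328 bp at Banp (2633 to 2847) and 2141 bp at Lmo7 (3144 to 3343). Fresh native also had the fewest peaks (14372) and the least covered length (23.6 Mb) of the day 2 lists. At Rpp25 frozen native had 364 bp and the others 0 bp.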

How the results depend on the processing

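No paired analysis was possible because the labels link no cycling library to a day 2 library. Covered length and the width of shared loci stayed lower at day 2 in every alternative run (with a list left out, -16.4 to -7.11 Mb and -563 to -347 bp). With lists reduced to the 14372 strongest peaks the difference in peak number was 0 by construction, median width was -457 bp and the share of peaks near a start -0.46 points (day 2 minus cycling), the last 2 reversed. The patterns then held 202 cycling and 143 day 2 loci, and 97 and 77 genes. With q at most 0.01 the day 2 pattern held 57 loci. Native day 2 lists only gave 2240 cycling pattern loci and 452 genes, and frozen day 2 lists only 211 day 2 pattern loci and 84 genes. Protein-coding genes only gave 183 cycling pattern genes. PSME3 peaks in at least 2 replicates overlapped 1.07% of cycling pattern, 1.14% of day 2 pattern and 5.75% of shared loci. In the limma fit, genes higher and lower numbered 149 and 196 with frozen, 146 and 215 with native day 2 lists only, and 116 and 1033 without normalization. Leaving out 1 list at a time, genes higher ranged from 323 to 539 and lower from 329 to 568, cycling pattern loci from 1226 to 2368, day 2 pattern loci from 89 to 173 and the difference in median width from -250 bp (without cycling replicate 2) to 311 bp. Of 86 named genes called, 33 kept the call in every alternative that gave them a value, and of 1589 values 239 lost it and 3 reversed, Defb25 (0.12, equal list lengths), Ccne2 (0.040) and Cdk1 (0.16) with a 2.5 kb window. Most of the 33, such as Myog and Acta1, had a mean under 500 bp in one stage. They passed the filter only through the other stage, so this count is no support for their calls. Each left-out list cost 7 to 18 of the calls of the 86 genes. The cause of these changes was not tested. Depth is unknown and limits what a missing peak shows.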

Other observations

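The widest H3K4me3 domains of both stages were at homeobox clusters. A locus over Hoxc9 to Hoxc12 (chr15:102938339-102989968) was covered over 45357, 51076 and 45991 bp in cycling and 45563, 40924, 47239 and 47383 bp in the day 2 lists. A locus over Hoxa3 to Hoxa11 (chr6:52208432-52255008) was covered over 42763, 46577 and 44080 bp against 42291, 36806, 41563 and 42589 bp. The next 3 were chr15:85652482-85690776 (mean 34866 bp over the 7 lists), a locus at Nfix (chr8:84766061-84805821, mean 24872 bp) and one at Cbarp, Atp5d, Midn and Cirbp (chr10:80137077-80170178, mean 23846 bp). At the Hoxa locus every day 2 list was narrower than every cycling list, and at the other 4 loci the stages overlapped.

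MicroRNA hairpins were looked up after the other results. Of 1005, 2 had covered bases within 5 kb in every day 2 list and no cycling list (0.199%), Mir190b and Mir6398, and 11 had the opposite. At Mir206, which encodes a muscle microRNA, covered length was 400, 448 and 1143 bp in cycling and 3272, 792, 2013 and 3281 bp at day 2, with overlap between the stages. Its mature 3p strand is shown with the seed (bases 2 to 8) in capitals (RefSeq, GRCm38.p6).
mmu-miR-206-3p: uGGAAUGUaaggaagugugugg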
